A study of Caenorhabditis elegans with 2 samples.

Results

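Among the regions that the product of tag-97 occupied in whole Caenorhabditis elegans larvae, 9 genes had promoters whose sequence aligned to each other: eel-1, supr-1, nrde-2, npp-6, mzt-1, atad-3, Y62F5A.12, C09E7.7 and enu-3.3. They were 9 of the 46926 genes in the gene models, and all 9 were protein-coding. The genes were selected on the measured binding lists together with the alignment of their promoters. Their place in those lists, their signal and the fact that they align are therefore a description, and no test is attached to them. Chromatin was taken from whole L4 animals aged 66 hours of strain OP719, grown from L1 larvae that had been starved after bleaching. The strain carries the integrated transgene wgIs719, in which tag-97 is fused to TY1, EGFP and 3xFLAG in a genomic clone that also holds unc-119(+), in an unc-119(tm4063) background. The fusion was precipitated with an antibody to GFP, after sonication to between 200 and 800 bp. The labels give svh-5 as the targeted gene. There were 2 biological replicates of 1 group and no second condition. The bound protein is thus an extra, tagged copy measured over all tissues of the animal together, and a control precipitation was not analysed here.

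A repeat family is a set of similar sequences scattered through a genome, often descended from copies of 1 mobile element. Where such copies lie in front of genes they can carry the same binding sequence to many promoters, and reads from their interior are hard to place because the sequence recurs. An inverted repeat is a copy whose left and right arms are each other's reverse complement. The family found here is not named, since no repeat annotation was used.

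The 9 promoters held 7 separate loci, because nrde-2 and atad-3 share 1 listed region between divergent 5′ ends and mzt-1 and enu-3.3 share another. At each locus the aligned part was an array of short units, spaced in most cases 15 bp apart, in which the word TCCCCTTT recurred. On its inner side each array followed the letters TGGCACAG, found at all 7 loci, and on its outer side it ended near GGGGCCTC. The sequences shown are the ends that lie under the listed summits of 4 loci, with 130 bases of the element followed by 40 bases of the flank, oriented so that the outer end is on the right. The repeated word is in capitals.
eel-1, listed end, chrIV:3050456-3050625, minus strand: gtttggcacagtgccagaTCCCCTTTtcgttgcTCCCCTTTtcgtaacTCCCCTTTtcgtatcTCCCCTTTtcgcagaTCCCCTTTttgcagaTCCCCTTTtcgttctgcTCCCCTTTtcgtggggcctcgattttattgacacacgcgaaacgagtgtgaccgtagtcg
Y62F5A.12, chrII:11534876-11535045, plus strand: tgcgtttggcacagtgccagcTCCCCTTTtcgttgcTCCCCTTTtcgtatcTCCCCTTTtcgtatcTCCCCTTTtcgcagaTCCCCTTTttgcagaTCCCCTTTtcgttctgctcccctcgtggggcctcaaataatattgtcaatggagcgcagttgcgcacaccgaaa
nrde-2 and atad-3, chrII:10248410-10248579, plus strand: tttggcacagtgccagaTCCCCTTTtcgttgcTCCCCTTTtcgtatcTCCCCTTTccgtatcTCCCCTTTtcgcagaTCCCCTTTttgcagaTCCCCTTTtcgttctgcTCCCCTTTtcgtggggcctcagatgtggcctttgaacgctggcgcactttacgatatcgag
C09E7.7, chrIII:6551655-6551824, plus strand: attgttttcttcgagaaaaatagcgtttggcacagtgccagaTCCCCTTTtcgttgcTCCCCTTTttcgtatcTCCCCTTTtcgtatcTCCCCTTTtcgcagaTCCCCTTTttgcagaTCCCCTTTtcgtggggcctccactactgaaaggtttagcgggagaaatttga
The arrays were nearly the same letters from locus to locus, while the flanks to their right differed.

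A few further ends are shown because the results turn on them: the opposite end of the eel-1 element, the array at the ribosomal protein gene rps-24, the strongest unlisted both-armed copy, which lies at ttll-4, and a copy with no ranked region.
eel-1, opposite end, chrIV:3050754-3050923, plus strand: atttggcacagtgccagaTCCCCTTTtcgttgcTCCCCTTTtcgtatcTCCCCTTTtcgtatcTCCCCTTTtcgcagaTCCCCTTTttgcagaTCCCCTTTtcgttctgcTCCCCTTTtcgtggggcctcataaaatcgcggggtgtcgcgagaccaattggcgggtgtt
rps-24, chrIV:385435-385564, plus strand: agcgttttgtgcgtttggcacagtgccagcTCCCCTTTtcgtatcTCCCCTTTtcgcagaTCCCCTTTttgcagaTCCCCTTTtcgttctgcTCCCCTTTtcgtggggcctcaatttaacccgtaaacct
ttll-4 copy, chrIII:10123678-10123847, plus strand: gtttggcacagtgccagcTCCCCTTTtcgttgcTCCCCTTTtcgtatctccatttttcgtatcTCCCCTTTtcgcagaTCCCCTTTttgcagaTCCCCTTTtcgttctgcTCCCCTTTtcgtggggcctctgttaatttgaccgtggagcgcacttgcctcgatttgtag
copy without a ranked region, chrIV:628359-628528, plus strand: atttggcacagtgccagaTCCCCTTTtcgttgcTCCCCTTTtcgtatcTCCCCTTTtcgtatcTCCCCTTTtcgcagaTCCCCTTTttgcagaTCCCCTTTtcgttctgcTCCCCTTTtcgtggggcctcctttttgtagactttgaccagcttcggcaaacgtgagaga
Over the 130 element bases printed, the listed end of eel-1 and its opposite end had 128 bases in common. The opposite end of eel-1 and the copy without a ranked region were identical at all 130.

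Each of the 9 promoter windows, which ran from 1000 bp upstream to 200 bp downstream of the annotated 5′ end, held exactly 1 region of the joint thresholded list. Over the whole series, 151 of 19985 protein-coding genes (0.756%) and 302 of all 46926 genes (0.644%) had a listed summit in such a window, and 321 of 118176 jointly ranked regions (0.272%) were listed. The count of 9 of 9 was fixed by the way the genes were chosen. Signal is the value deposited by the authors for each region, on the peak caller's unstated scale. The irreproducible discovery rate (IDR) measures how poorly a region holds its rank between 2 inputs, so a low IDR marks a reproducible region, and every listed region had an IDR of at most 0.01. Coordinates are on ce11 and 1-based.

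The strongest locus was that of eel-1, which encodes a HECT-type E3 ubiquitin ligase related to human HUWE1. Its region at chrIV:3050332-3050627 had a joint signal of 136, with 52.6 in replicate 1 and 75.9 in replicate 2, and an IDR of 0.000403. The summit lay 376 bp upstream of the 5′ end, between genes. Both replicates' own thresholded lists and the conservative list, which ranks the replicates against each other, also held it.

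The supr-1 region at chrI:2996211-2996506 had a joint signal of 133, with 64.2 in replicate 1 and 63.5 in replicate 2. It was the other locus present in all 4 lists. The summit lay 445 bp upstream of supr-1 and 129 bp upstream of dnj-28, a gene for a DnaJ-domain protein on the other side, which is the 1 further gene whose window holds a summit of these loci.

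At Y62F5A.12 the region chrII:11534848-11535143 had a joint signal of 108, with 54.9 in replicate 1 and 50.8 in replicate 2. It lay 517 bp upstream and was held by the conservative list and by the list of replicate 2, but not by that of replicate 1, where its IDR was 0.205. The replicate signals were close, so presence in 1 replicate's list and not in the other did not go with a large difference in signal.

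The region at npp-6, which encodes the Nup160 subunit of the nuclear pore, lay at chrI:5176251-5176546 with a joint signal of 105. Replicate 1 gave 44.6 and replicate 2 gave 54.8. The summit was 430 bp upstream of npp-6 and inside an intron of spd-5, which encodes a centrosome scaffold protein and runs the other way. The conservative list held this region and neither replicate's own list did.

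The 3 remaining loci were weaker and were held by the joint list alone. The region between nrde-2, whose product acts in nuclear RNA interference, and atad-3, which encodes a mitochondrial AAA ATPase, lay at chrII:10248425-10248720 with a joint signal of 79.8. It had 45.1 in replicate 1 and 29.9 in replicate 2, the highest ratio of replicate 1 to replicate 2 among the 7 loci at 1.51. Its summit was 935 bp upstream of nrde-2 and 418 bp upstream of atad-3, so the nearer 5′ end is that of atad-3.

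At C09E7.7 the region chrIII:6551637-6551932 had a joint signal of 71.0, with 37.8 in replicate 1 and 31.1 in replicate 2, and a summit 542 bp upstream. The weakest locus was that of mzt-1, a small partner of the gamma-tubulin complex homologous to human MOZART1, and enu-3.3, a member of the enu-3 family known from axon outgrowth. Its region at chrI:4959107-4959402 had a joint signal of 61.3, with 30.6 in replicate 1 and 28.9 in replicate 2. The summit lay 946 bp upstream of mzt-1 but 38 bp downstream of the 5′ end of enu-3.3, inside the 5′ untranslated region. Its IDR of 0.00819 made it the member closest to the threshold, whereas the closest unlisted copy of the element with 80% identity or more, at ttll-4, had an IDR of 0.0205.

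**Figure D1:**
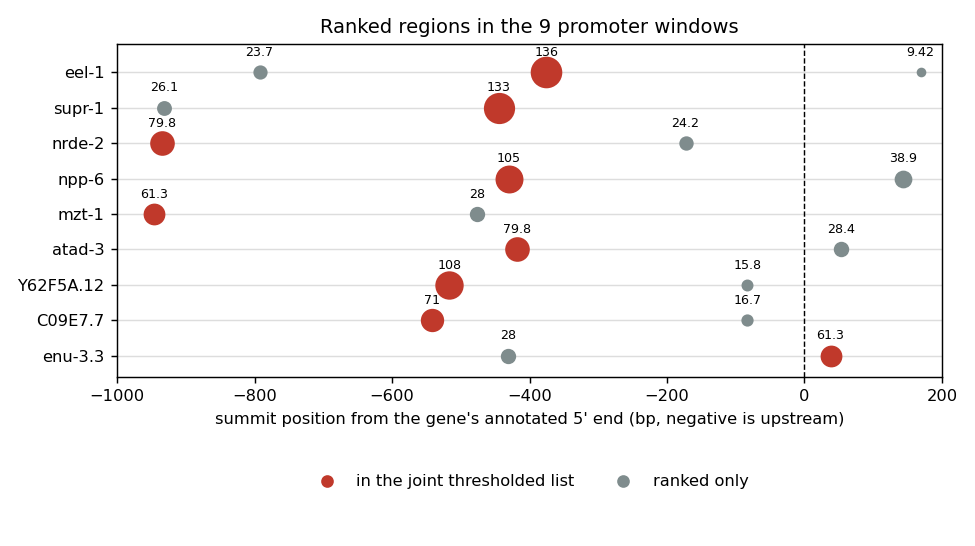
Summit position of every jointly ranked region in the 9 promoter windows against the annotated 5′ end (bp), with the area of each point in proportion to the joint signal, which is printed above it. Red points are listed and grey points are ranked only; each window holds 1 red point, between 61.3 and 136, and grey points of at most 38.9.

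**Figure D2:**
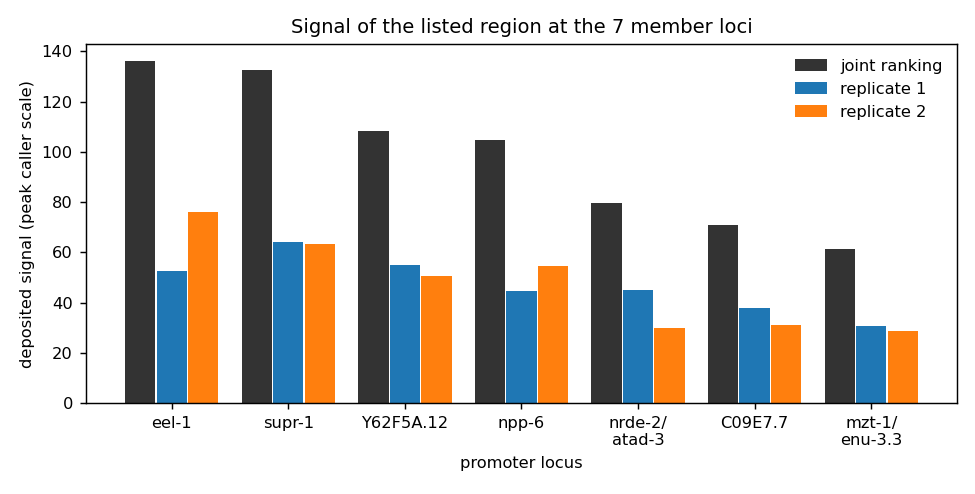
Joint, replicate 1 and replicate 2 signal of the listed region at each of the 7 loci, on the deposited scale (single values, no error bars). The order of the joint signals runs from 136 at eel-1 to 61.3 at mzt-1 and enu-3.3, and the replicates differ most at nrde-2 and atad-3 and at eel-1.

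Replicate 1 spanned 30.6 to 64.2 over the 7 loci and replicate 2 spanned 28.9 to 75.9. The ratio of replicate 1 to replicate 2 ran from 0.693 at eel-1 to 1.51 at nrde-2 and atad-3, with a median of 1.06. Over all listed regions with a matched region in both replicates, 320 of them, the median ratio was 0.940. Since each locus has 1 value per replicate, neighbours in the order of signals, such as eel-1 and supr-1 or Y62F5A.12 and npp-6, cannot be told apart: eel-1 was above supr-1 in replicate 2 and below it in replicate 1.

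Beside the listed region, every window held at least 1 weaker ranked region, 9 different ones in all, with signals from 9.42 to 38.9 and a median of 24.2. The share of other promoter windows with such a region is not given here. The median over all jointly ranked regions was 18.6. The strongest of these weaker regions lay 143 bp downstream of the 5′ end of npp-6, in a coding exon. No weaker region was in the joint list, but replicate 1's own thresholded list held a second region at eel-1, with a signal of 19.7 and an IDR of 0.00369, that overlapped the weaker joint one.

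The element differed in extent among the loci. It measured 388 bp at eel-1, 373 bp at supr-1, 385 bp at Y62F5A.12, 409 bp at C09E7.7 and 372 bp at mzt-1 and enu-3.3. At each of these 5 loci it was an inverted repeat with an arm at either end. The aligned part next to the summit was shorter at nrde-2 and atad-3 (163 bp) and at npp-6 (145 bp), where it held 1 arm. In both of these a second arm read in the opposite direction farther off, across a gap of 426 bp at nrde-2 and atad-3 and of 302 bp at npp-6. These 2 loci also shared the longest alignment of any pair that includes a 1-armed locus, 357 bp at 97.5% identity.

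Among the 10 pairs of both-armed loci, identity over the best alignment ran from 90.7% to 97.7%, with a median of 93.9%, over 339 to 425 bp. The most alike of these pairs was eel-1 and Y62F5A.12, at 97.7%. All 21 pairs of the 7 loci also aligned on the opposite strand, as an inverted repeat does.

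The 7 elements held 81 copies of TCCCCTTT, counting both strands. Counts ran from 6 at npp-6, 7 at nrde-2 and atad-3 and 12 at mzt-1 and enu-3.3 to 16 at C09E7.7. Of the 69 spacings between neighbouring copies on 1 strand, 58 (84.1%) were exactly 15 bp and 67 were between 15 and 17 bp. Within the 81 units, position 9, the base after the word, was T in 97.5%, and position 11 was G in 97.5%. Position 10 was C in 84.0%, and positions 12 to 15 varied more. When the 130 bases inside each listed end were aligned with each other, the alignment had 156 columns, of which 89 held all 7 arms without a gap. Of these, 85 were identical, or 54.5% of all columns. The word was picked from these regions as the most frequent of its length, so its presence in them is a description. Among all listed regions of 296 bp, 12 of 315 (3.81%) held it at least once, compared with 1039 of 117850 (0.882%) ranked regions that were not listed. The 7 member loci are among these 12, so the contrast follows in part from how the word was picked. It occurred 3 or more times in 8 of 315 (2.54%) and in 48 of 117850 (0.0407%). Of those 8, 7 were the member loci and 1 was the region at rps-24.

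The position of the summit on the element was not used in choosing the genes. The end was, however, taken as the outer end nearest the summit, so the measure itself favours short distances. All 7 joint summits lay within 40 bp of an outer end of the array, from 9 bp inside the element at Y62F5A.12 to 37 bp outside it at mzt-1 and enu-3.3. The summit was 16 bp outside at eel-1, 3 bp inside at supr-1, 5 bp inside at npp-6, 34 bp outside at nrde-2 and atad-3, and 1 bp outside at C09E7.7. In the replicates' own lists the summits at these loci ran from 45 bp inside to 24 bp outside in replicate 1 and from 34 bp inside to 45 bp outside in replicate 2. At Y62F5A.12 all 3 summits fell on the same base. Of the 26 copies away from the member loci that had an arm and a ranked region, 10 had a summit within 40 bp of an outer end. Over the 26, the median summit was 43 bp inside. Their ends were where the alignment to the eel-1 element stopped, and only an end with at least 3 units counted. Partial copies are among the 26, so their distances are not measured quite as those of the member loci. No word of 8 bases was present in the 150 bp flank of more than 3 of the 7 loci.

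**Figure D3:**
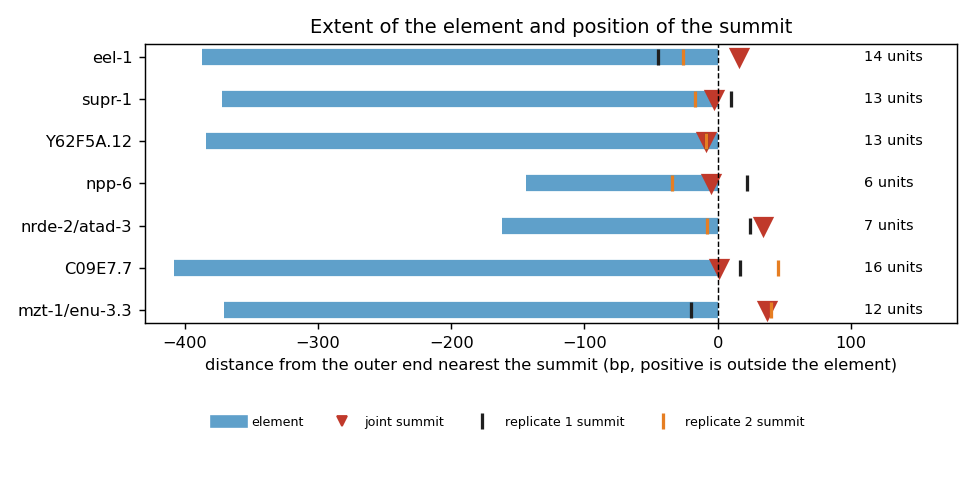
Extent of the element at each locus (blue bar, bp) aligned on the outer end nearest the joint summit, at 0, with the summits in the joint ranking (triangle) and in each replicate (ticks); positive distances lie outside the element. The triangles sit between -9 and 37 bp at all 7 loci although the bars run from 145 to 409 bp.

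The listed end pointed toward the 5′ end at 3 of the 9 genes, eel-1, npp-6 and atad-3, and away from it at 5. At enu-3.3 it coincided with the 5′ end to within 1 bp. The distance from this end to the 5′ end of the gene ran from 1 bp at enu-3.3 to 909 bp at mzt-1. Among genes of both-armed loci, the opposite end was the closer at Y62F5A.12, C09E7.7, supr-1 and mzt-1, at 142 bp, 133 bp, 76 bp and 538 bp. The listed signal was at the farther end for these genes, and at the closer end for eel-1 and enu-3.3. At the supr-1 locus the listed end was the closer to dnj-28, whose 5′ end was 129 bp from the summit.

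At the 5 loci with both arms, the opposite end carried a weaker region or none. The listed end is by definition the outer end nearest the listed summit. That it was the stronger end therefore follows from the choice of the members, and the values below are a description. At eel-1 the listed end had a signal of 136 and the opposite end 23.7, with 14 bp between that weaker summit and the end. Replicate 1 alone listed a second region on this element, with a signal of 19.7 against 52.6 at the listed end and a summit 108 bp inside the opposite end. Replicate 2 had no second region there. At Y62F5A.12 the values were 108 and 15.8, at C09E7.7 71.0 and 16.7, and at mzt-1 and enu-3.3 61.3 and 28.0, with the weaker summit between 50 and 61 bp from the end at these 3 loci. At supr-1 no ranked region lay within 100 bp of the opposite end. The ratio of the ends ran from 2.19 at mzt-1 and enu-3.3 to 6.86 at Y62F5A.12 where both had a value. At mzt-1 and enu-3.3 replicate 1 had 30.6 and 5.28 at the listed and opposite ends, and replicate 2 had 28.9 and 16.3. The arms of 1 element were 99.2% identical at eel-1, over 129 bp, and 96.9% at Y62F5A.12, over 130 bp, down to 86.2% at mzt-1 and enu-3.3. Among 23 both-armed copies elsewhere, 12 had a ranked region at 1 end, 3 at both ends and 8 at neither, and the ratio of the ends in those 3 ran from 2.04 to 2.19. The 2 far arms of the other loci had 24.2 at nrde-2 and atad-3 and 8.06 at npp-6, compared with 79.8 and 105 at their listed ends.

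Sequence uniqueness moved with position on the element. Inside it, words of 50 bases that occur once in the genome made up between 0% of all words at npp-6 and 58.6% at C09E7.7, compared with a median of 100% and a mean of 95.7% over the promoter windows of 19985 protein-coding genes. Over the 150 bp outside the listed end the share was 100% at 6 loci and 85.1% at mzt-1 and enu-3.3. The same stretch outside the opposite end was at 100% in all 5 both-armed loci. Inside the element the ends differed. Over the 150 bp inside the listed end the share was 44.6% at eel-1, 38.6% at supr-1 and 10.9% at Y62F5A.12. It was 68.3% at C09E7.7 and 0% at mzt-1 and enu-3.3. At the single base 300 bp inside the listed end, in the opposite arm, it was 0% at eel-1 and Y62F5A.12. There it was 44% at mzt-1 and enu-3.3, 56% at C09E7.7 and 70% at supr-1. With words of 100 bases the element's share ran from 17.4% at npp-6 to 100% at C09E7.7 and at nrde-2 and atad-3. Read length is not given in the sources used here, and the part of read placement in where the summits fell was not tested.

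**Figure D4:**
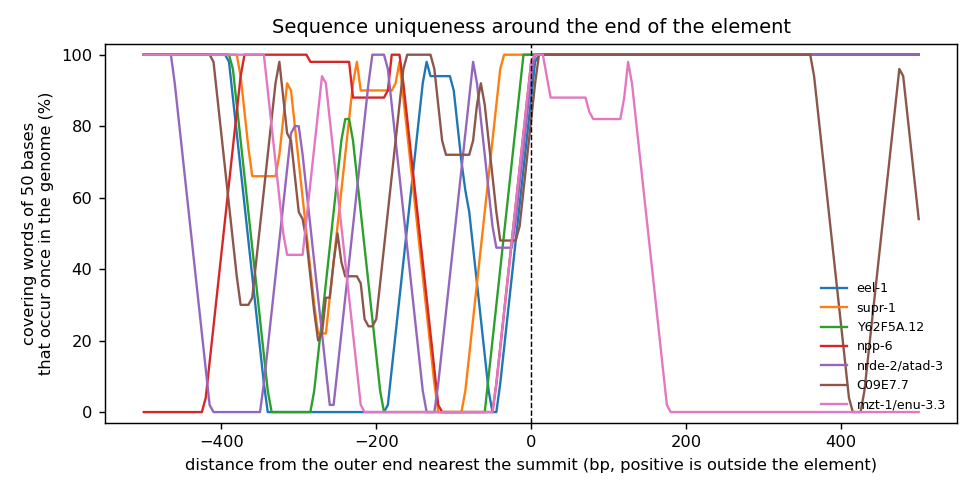
Share of the words of 50 bases covering each position that occur once in the genome (%), against distance from the outer end nearest the summit (bp, positive outside the element), with 1 line per locus. The share falls inside each element, to an extent that differs among loci, and is at or near 100% just outside the end at every locus. At mzt-1 and enu-3.3 it is 88% at 25 bp outside the end and 0% from 180 bp. At C09E7.7 it falls from 365 bp outside the end and reaches 0% at 415 bp.

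With the eel-1 element as the query, 64 copies of at least 100 bp and 80% identity were found in the genome. Of these, 7 were at the member loci, 2 were the far arms of nrde-2 and atad-3 and of npp-6, and 55 lay elsewhere. Among the 55, a pair at chrV:14443651-14443750 and chrV:14443856-14444141 has arms that read in opposite directions. The pair lies just beyond the 100 bp within which alignments were merged and is counted as separate copies. A ranked region lay in or within 100 bp of 34 of the 55, and a listed region at 0 of them. The share of other places of the same width with a ranked region so near is not given here, so the count of 34 has no background beside it. The joint signal of the strongest region at each of those 34 copies ran from 4.24 to 56.0 with a median of 26.6. The median over all ranked regions was 18.6, but no strongest region was picked there, so the measures differ. The 7 member loci ran from 61.3 to 136 with a median of 105. The gap between these ranges follows from choosing the members by the list. In replicate 1 the copies elsewhere ran from 3.49 to 31.3 (27 copies) and the member loci from 30.6 to 64.2. In replicate 2 they ran from 7.51 to 24.7 (22 copies) and from 28.9 to 75.9.

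Copies elsewhere with both arms had a ranked region at 18 of 23, with a median signal of 28.7. Copies with 1 arm had such a region at 10 of 11, with a median of 24.8. These include the far arms of nrde-2 and atad-3 and of npp-6, and the chromosome V pair. Copies with no arm had such a region at 8 of 23, with a median of 23.4. The no-arm copies were all shorter than the both-armed ones. A longer copy has more room for a ranked region, so these counts cannot be compared directly. The 6 both-armed copies elsewhere with 97% identity or more, from 97.7% to 98.7%, had 4 ranked regions between 29.8 and 54.3 and none in the other two. The 4 other both-armed member loci were 93.5% to 97.7% identical to it. Both-armed copies elsewhere held 10 to 14 units, with a median of 12, and both-armed member loci 12 to 16, with a median of 13. Of the 55 copies elsewhere, 14 overlapped the promoter window of a protein-coding gene, and the 10 of these with a ranked region had a median signal of 30.9. In all, 30 protein-coding promoters overlapped a copy, and 10 of them had a listed region: the 9 members and dnj-28. The members were chosen for their listed regions, and dnj-28 shares the summit of supr-1. The count of 10 therefore follows from the selection and is not a rate of binding. Over all protein-coding genes the share with a listed region was 0.756%.

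With the eel-1 element as the query, the minimum of 80% identity left out 1 promoter of the same kind, which was noticed only after the values had been seen. The listed region at chrIV:385420-385715 lay 319 bp upstream of rps-24, which encodes a protein of the small ribosomal subunit, with a joint signal of 112. Replicate 1 had 64.6 and replicate 2 had 51.1, and all 3 other lists held it. It sat at one end of an inverted repeat of 361 bp with 5 units in each arm, which aligned to the eel-1 element at 76.5% identity. Of the 7 elements used as the query, 3 found part of it at 80%, and the count of copies with a listed region was 7 with each. The summit was 22 bp outside that end and no ranked region lay within 100 bp of the other end. Only eel-1 and supr-1 among the member loci were likewise in all 4 lists, and both had a higher joint signal. With a minimum of 70% identity there were 99 copies, 8 with a listed region. The strongest of the 91 unlisted ones then had a signal of 67.0, above that of mzt-1 and enu-3.3, at an IDR of 0.0160.

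**Figure D5:**
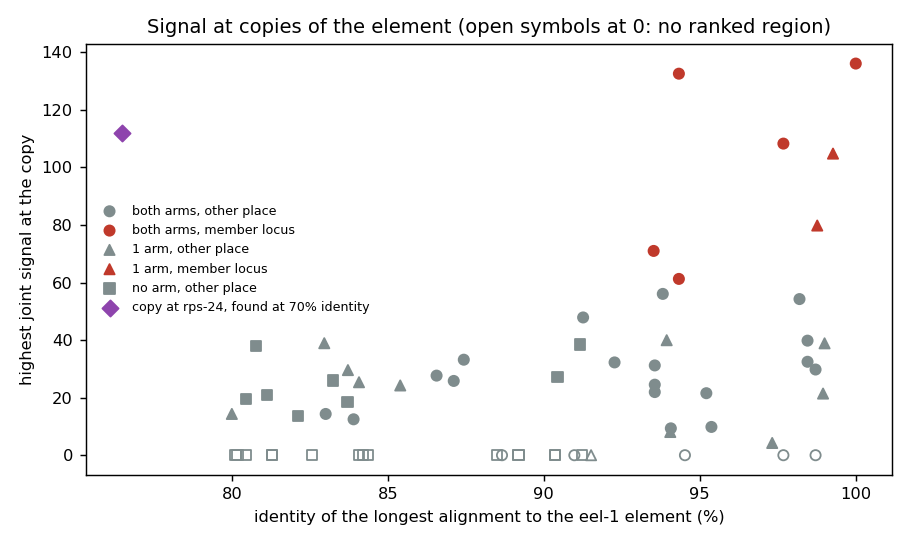
Highest joint signal at each copy of the element against the identity of its longest alignment to the eel-1 element (%), by shape for copies with both arms, 1 arm or no arm; open symbols at 0 have no ranked region. The 7 member loci (red) lie between 61.3 and 136 and the other copies of at least 80% identity (grey) at or below 56.0, with the rps-24 copy (diamond) at 112.

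Of 60 other genes with roles like those of the members, 1 (1.67%) had a listed region, compared with 0.756% of all protein-coding genes. Among 6 HECT ubiquitin ligases, eel-1 and wwp-1 had a listed region, at 136 and 49.8. Among 9 genes of nuclear RNA interference only nrde-2 had one, and the strongest ranked region of the other 8 was 27.3 at set-32. Of 26 nucleoporin genes only npp-6 had one, with 37.0 at npp-25 as the next. Of 10 genes of the gamma-tubulin complex and the centrosome only mzt-1 had one, with 38.9 at spd-5 as the next. That value is also the one given above for the weaker region in the npp-6 window. Of 10 genes for mitochondrial inner membrane and AAA proteins only atad-3 had one, with 41.2 at ymel-1 as the next. Of 5 genes of the enu-3 family only enu-3.3 had one, with 33.2 at enu-3.1 as the next. A both-armed copy of the element overlaps the enu-3.1 promoter window, and the 33.2 is the signal at that copy. Another both-armed copy overlaps the window of enu-3.5. Since each list contains a gene that was chosen for its listed region, its count is at least 1 by construction and is not a sign of anything particular to the list.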

How the data were processed

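ChIP-seq region lists of 2 biological replicates of 1 group were used, on the ce11 build per the labels; chromosome lengths of the reference fitted every region. The signal deposited by the authors is a peak caller value of unstated scale. The deposited score rises with reproducibility and is at least 830 in the joint list. The −log10 of the global IDR deposited by the authors was turned back into an IDR. A further 75 ranked regions at or below 0.01 were absent from that list. Neither aligner, peak caller nor read length is given in the sources used here. Depth is unknown because the files hold no read counts, so no interval is given.

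Genes came from Ensembl release 115. The joint ranking gave the main values, and each replicate's own ranking gave the replicate values, by the strongest overlapping region. Sequence within 700 bp of each summit was aligned with blastn 2.17.0 (word size 11, E-value 1e-05), and an element was the run next to the summit shared with at least 3 of the 6 other loci. Alignments within 100 bp of each other were merged into 1 copy, and an arm needed 3 units. Arms were aligned with mafft 7.526. Copy search and word counts were checked on simulated sequence. Python 3.11.15, NumPy 2.4.6, pandas 2.3.3 and matplotlib 3.10.9 were used.

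Members and lists were chosen with earlier results of these data known. Named genes were the members, genes sharing their summits, promoters with both a copy and a listed region, and related genes with a listed region. The names rps-24, ttll-4, spd-5 and enu-3.5 were added after the data had been seen. So were the strongest unlisted gene of each related list and the words TGGCACAG and GGGGCCTC. No test was made, since there is 1 group and the selection used the signals.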

Additional observations from a re-analysis of the deposited data

How the results depend on the processing

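All 9 members kept a ranked region, and an alignment to another member, under each alternative run. The number with a listed region fell from 9 to 5 with a promoter window cut to 500 and 100 bp, to 4 in the conservative list, to 3 at an IDR of at most 0.001, and to between 2 and 3 when either replicate was left out. The 64 copies became 102 with alignments of at least 50 bp, 34 with at least 200 bp, 99 at 70% identity and 36 at 90%. With the 1-armed elements as the query they became 47 for npp-6 and 44 for nrde-2 and atad-3. The other both-armed elements gave between 62 and 64. The copies with a ranked region, 43 in all, became 23 when the summit had to lie inside the copy and 66 at 70% identity. The 7 copies with a listed region became 2 with the summit inside, 4 in the conservative list and between 2 and 3 when either replicate was left out. The cause of these changes was not tested beyond the stricter or looser limits themselves. The alternatives at 70% identity and with other queries for copies with a ranked or listed region were chosen after seeing the data. No paired analysis was possible because there is only 1 group. Depth is unknown, so a copy without a ranked region is not shown to be unbound.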
